A study of Bos taurus with 20 samples.

Results

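COL1A1, COL1A2 and COL3A1, which encode the chains of the fibrillar collagens types I and III, and SERPINH1, which encodes their dedicated chaperone, were measured in the endometrium of heifers on day 18 after oestrus. They were represented by every clone of a pair of spotted cDNA arrays whose gene table gave one of these symbols alone, 19 of 3072 clones in all. The array called 18KB held 5 of them among its 1536 clones, 1 for COL1A1, 3 for COL1A2 and 1 for COL3A1. The array called 18KO held 14 among 1536, 2 for COL1A1, 8 for COL1A2, 3 for COL3A1 and 1 for SERPINH1, which had none on 18KB. The gene identifiers in the table are 282187 for COL1A1, 282188 for COL1A2, 510833 for COL3A1 and 510850 for SERPINH1.

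All animals were Simmental heifers whose oestrous cycle had been synchronised by 1 injection of the prostaglandin analogue cloprostenol. The 4 pregnant heifers, aged 17 to 20 months, were inseminated with frozen and thawed sperm, and a whole conceptus was found in the uterine horn on the side of ovulation and taken out before sampling. The 6 controls, aged 18 to 22 months, received the supernatant of centrifuged sperm from the same bull and carried no conceptus. The tissue was intercaruncular endometrium, the part between the sites of later placental attachment, cut from the caudal part of that horn. The RNA of every animal went onto both arrays as probes carrying radioactive phosphorus, so that 20 samples are 10 animals seen on 2 arrays. The 18KB array carries a subtracted library enriched for transcripts more abundant in pregnant animals, and 18KO the reverse, so the direction on 18KO was favoured when its clones were picked.

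Fibrillar collagen is the main load-bearing protein of connective tissue. Type I is a triple helix of chains from COL1A1 and COL1A2, type III a helix of identical chains from COL3A1, and both are made mainly by fibroblasts. SERPINH1, also known as HSP47, is a resident of the endoplasmic reticulum that binds newly folded procollagen until it moves on to secretion. In the endometrium these fibres form the scaffold of the stroma, through which glands and vessels run.

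The values are spot intensities on the linear scale, as deposited. For a gene with several clones on an array, the value of an animal is the geometric mean of its clones. Column medians over all clones ran from 1.39 to 3.18 on 18KB, where those of all pregnant animals exceeded those of all controls, and from 1.67 to 3.90 on 18KO, where pregnant 448 had the lowest and control 449 the highest. No value of the 4 genes lay at the floor of 0.01, and they spanned 18.77 to 586.3 on 18KB and 1.4 to 577.18 on 18KO. The highest value of any clone was 685.73 on 18KB and 632.83 on 18KO, so the brightest collagen values lay near the top of the scale. The 18KO array of pregnant 316 was hybridised later because of blurred spots and placed by its ratios to a pair of samples run with it, per the labels. Precision is limited by the number of animals, and p-values measure the spread between these animals.

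Transcripts of the 3 fibrillar collagen chains were less abundant in pregnant than in control endometrium, by 4.05-fold for COL1A1, 3.32-fold for COL1A2 and 3.22-fold for COL3A1 on 18KB. On 18KO the pregnant animals were lower by 4.84-fold for COL1A1 and 3.31-fold for COL3A1. The change of COL1A2, 3.32-fold, and that of SERPINH1, 2.75-fold, pointed the same way on 18KO but did not pass the threshold. That threshold, a fold of 2 or more with an adjusted p below 0.01 by limma (Benjamini-Hochberg over every feature of an array), follows the limits the study set for its own calls. It was passed downward by 3 of the 3 genes on 18KB, where 0.634% of the 1420 features passed it. On 18KO it was passed downward by 2 of the 4 genes, where 3.87% of 1471 features did. Genes were named chiefly because their clones differed in these animals, so all features are no like background for them. Among named genes, 9 of 86 on 18KB and 21 of 72 on 18KO passed the threshold downward. In bulk tissue, fewer cells of a type and less RNA per cell cannot be told apart.

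COL1A1, the chain present in double dose in type I collagen, had the most negative estimate of these genes on each array. On 18KB its intensity was 53.05 in pregnant 316, 99.37 in 426, 106.21 in 447 and 27.8 in 448. The controls had a lowest value of 154.7, a median of 253 and a highest of 525.99. The brightest pregnant animal therefore lay below the dimmest control. On the log2 scale the spread was wider among the pregnant animals (SD 0.90 against 0.72), with 448 well under the rest. The log2 fold change was -2.02 ± 0.45 (SE, n = 4 and 6, adjusted p = 0.0047), the second most negative of all 1420 features of the array. On 18KO the 2 clones together read 71.2 in pregnant 316, 79.2 in 426, 116 in 447 and 28.8 in 448. Controls ran from 162 to 554 with a median of 343, again without overlap and with the pregnant animals in the same order as on 18KB. The change there was -2.28 ± 0.41 (SE, adjusted p = 0.00251), rank 28 from the most negative of the 1471 features. Without pregnant 448 it was -1.88 with an adjusted p of 0.0103, past the limit. On 18KB the call was lost without pregnant 316, pregnant 448, control 440 or control 449, at adjusted p-values of 0.0115 to 0.0140.

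COL1A2 supplies the remaining chain of the type I helix. Its 3 clones on 18KB gave 39.8 in pregnant 316, 60.5 in 426, 68.0 in 447 and 20.0 in 448. The controls ran from 77.8 to 303 with a median of 144. The groups were again apart, with 427 far above the other controls. The log2 fold change was -1.73 ± 0.41 (SE, adjusted p = 0.00735). This call was lost without pregnant 316, 426 or 448 or without control 404, 440 or 449, at adjusted p-values of 0.0120 to 0.0203. On 18KO its 8 clones gave 56.1 in pregnant 316, 70.4 in 426, 87.7 in 447 and 16.3 in 448. The controls ran from 80.6 to 301 with a median of 156. Here pregnant 447 stood above control 330, the dimmest control, so the groups overlapped. The estimate of -1.73 ± 0.46 (SE) was the same as on 18KB to 2 decimals, with an adjusted p of 0.0253. It was -1.10 with array weights, which count deviating arrays less.

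COL3A1 encodes the single chain of type III collagen, which forms thin fibres alongside type I. On 18KB its clone read 137.75 in pregnant 316, 181.34 in 426, 262.06 in 447 and 59.27 in 448. The controls ran from 337.02 to 586.3 with a median of 463. The groups did not overlap. The controls were closer together than for the type I chains, with an SD of 0.33 on the log2 scale against 0.72 for COL1A1. In control 427 this clone ranked 2 among all clones, at 586.3 against a column maximum of 600.77. Whether the top of the scale narrowed the control spread was not tested. The log2 fold change was -1.69 ± 0.35 (SE, adjusted p = 0.00367), and without pregnant 316 the adjusted p was 0.01004, just past the limit. On 18KO the 3 clones read 10.6 in pregnant 316, 7.54 in 426, 14.5 in 447 and 3.77 in 448. Controls ran from 15.9 to 38.7 with a median of 28.3 and an SD of 0.47 on the log2 scale, with no overlap. The change was -1.73 ± 0.37 (SE, adjusted p = 0.00806). When each animal was left out in turn, the call held without pregnant 447 or control 330, and without any one of the other 8 the adjusted p was 0.0123 to 0.0312. The call was also lost with array weights, at -1.20 (adjusted p = 0.0128), where SERPINH1 gained one, and when the brightest clone stood for the gene (adjusted p = 0.0167).

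SERPINH1, the procollagen chaperone, had 1 clone on 18KO, which read 4.07 in pregnant 316, 2.86 in 426, 3.89 in 447 and 1.51 in 448. The controls ran from 4.5 to 11.54 with a median of 7.99. All pregnant animals were below all controls as deposited, by a narrow gap between control 434 at 4.5 and pregnant 316. With equal column medians the groups overlapped, control 434 at 3.91 lying below pregnant 316 at 4.11 and 447 at 4.26. The log2 fold change was -1.46 ± 0.33 (SE). Its adjusted p was 0.0129 over the 1471 features of the array and 0.00999 when every clone of the array was tested for itself, so that the call turned on the table used for adjustment. Without control 434 it was -1.62 with an adjusted p of 0.00635.

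**Figure D1:**
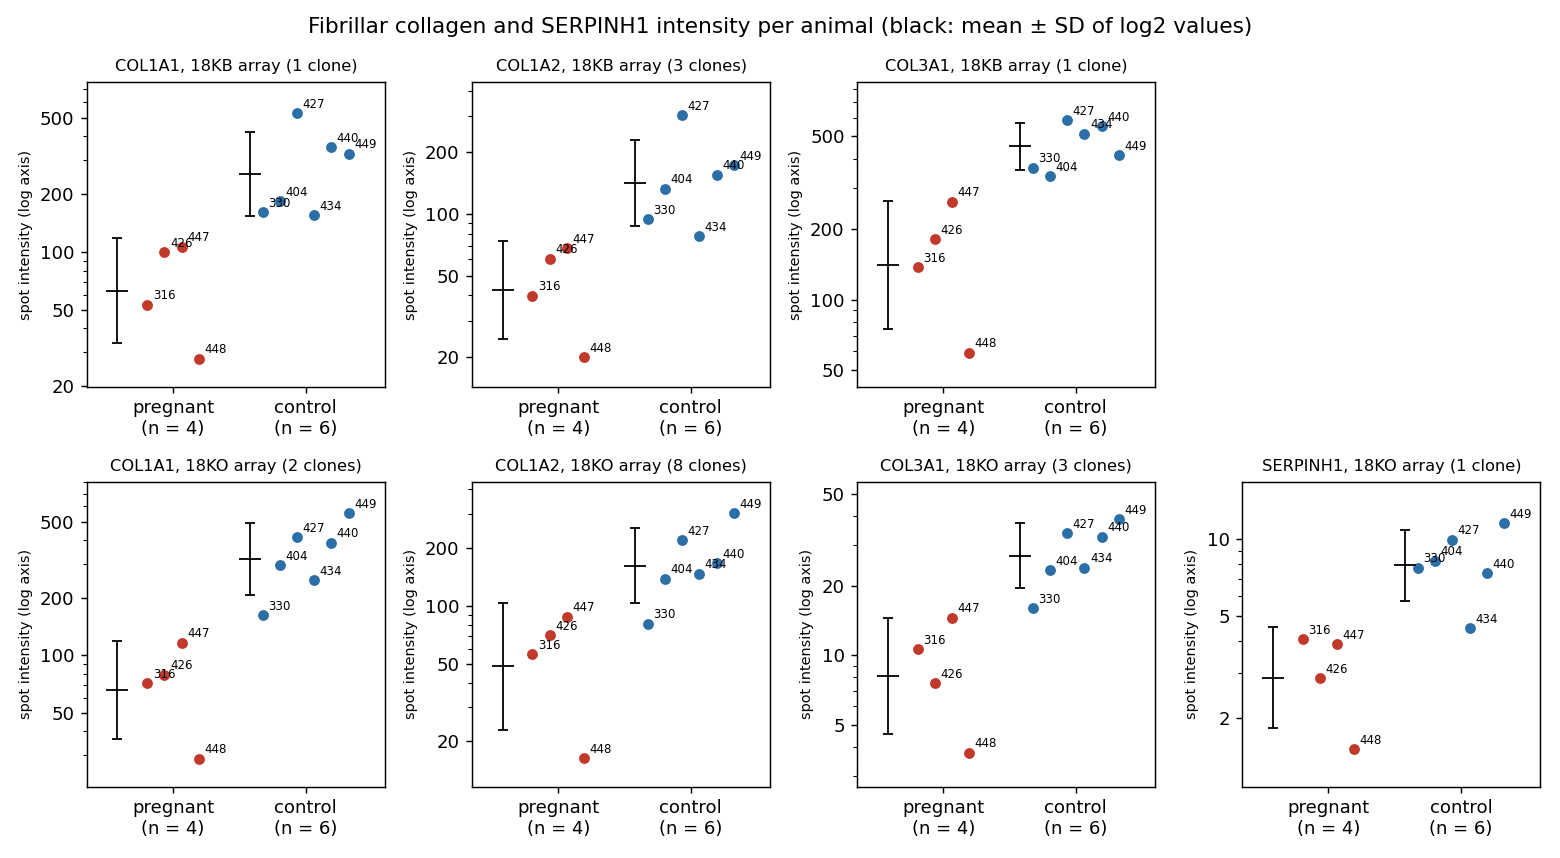
Spot intensity of each gene in every animal (log axis, intensity as deposited), for the 18KB and 18KO arrays; each point is 1 animal with its number, and the black marks give the group mean ± SD of log2. Only COL1A2 on 18KO has a pregnant animal (447, at 87.7) above a control (330, at 80.6), and pregnant 448 is the lowest animal in every panel.

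Tested without a model of the variance, the difference in mean log2 of the 7 gene and array combinations gave two-sided exact permutation p-values of 0.00476 for 5 of them and 0.00952 for COL1A2 on both arrays. The smallest p this design allows is 0.00476, which is 1 of the 210 ways to split 10 animals into 4 and 6. All pregnant animals were below all controls for 3 of 3 genes on 18KB, against 1.83% of features there. The same held for 3 of 4 genes on 18KO, against 9.59%. Both shares are over all features, most of them without a name. With equal column medians the counts were 3 of 3 on 18KB, against 30.1% of features, and 2 of 4 on 18KO, against 6.32%, and the exact permutation p of SERPINH1 was 0.019. The 2 arrays share their animals and RNA, so one is no replicate of the other. With age as a covariate the calls of COL1A1 and COL1A2 on 18KB and of COL3A1 on 18KO were lost, at adjusted p-values of 0.0132, 0.0204 and 0.0135. With a higher floor, at the 10th percentile of the array, COL1A1 and COL3A1 lost their calls on 18KO (adjusted p = 0.0118 and 0.0233), and COL1A2 on 18KB (adjusted p = 0.0107). With 1 scaling factor per animal taken from both arrays, COL1A2 and SERPINH1 were also called on 18KO, at adjusted p-values of 0.00594 and 0.00222.

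Each of the 19 clones had a lower mean in the pregnant group. Clones of a gene share their target and are not replicates. What sets the clones of a gene apart was not tested. Tested clone by clone, 4 of 5 on 18KB passed the threshold downward, where 0.716% of 1536 clones did, and 4 of 14 on 18KO, where 6.32% did. The groups were apart for 4 of 5 clones on 18KB, against 1.82% of clones, and for 6 of 14 on 18KO, against 12.2%. These shares, too, are over all clones of an array, most of them without a name. Log2 fold changes were tightly grouped on 18KB, from -2.02 to -1.69 with a median of -1.74. They were wider on 18KO, from -2.52 to -1.35 with a median of -1.70.

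The 2 COL1A1 clones of 18KO differed in size, 18KO-06-D09 at -2.52 ± 0.45 (SE) and 18KO-08-G11 at -2.03 ± 0.42 (SE), and both were called. The 8 COL1A2 clones of 18KO ran from -2.07 in 18KO-17-F12 to -1.35 in 18KO-13-D07, and none was called, with adjusted p-values of 0.0135 to 0.0477. The clone with the smallest change, 18KO-13-D07, was also the one COL1A2 clone of 18KO whose groups were apart. Among the COL3A1 clones, 18KO-13-C06 changed most, at -2.06 ± 0.45 (SE), and was called although pregnant 447 overlapped the controls. The other two stood at -1.63 ± 0.40 (SE) in 18KO-11-A01 and -1.49 ± 0.41 (SE) in 18KO-09-C10, with separate groups but no call. So separation of the groups and the moderated test did not pick out identical clones.

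**Figure D2:**
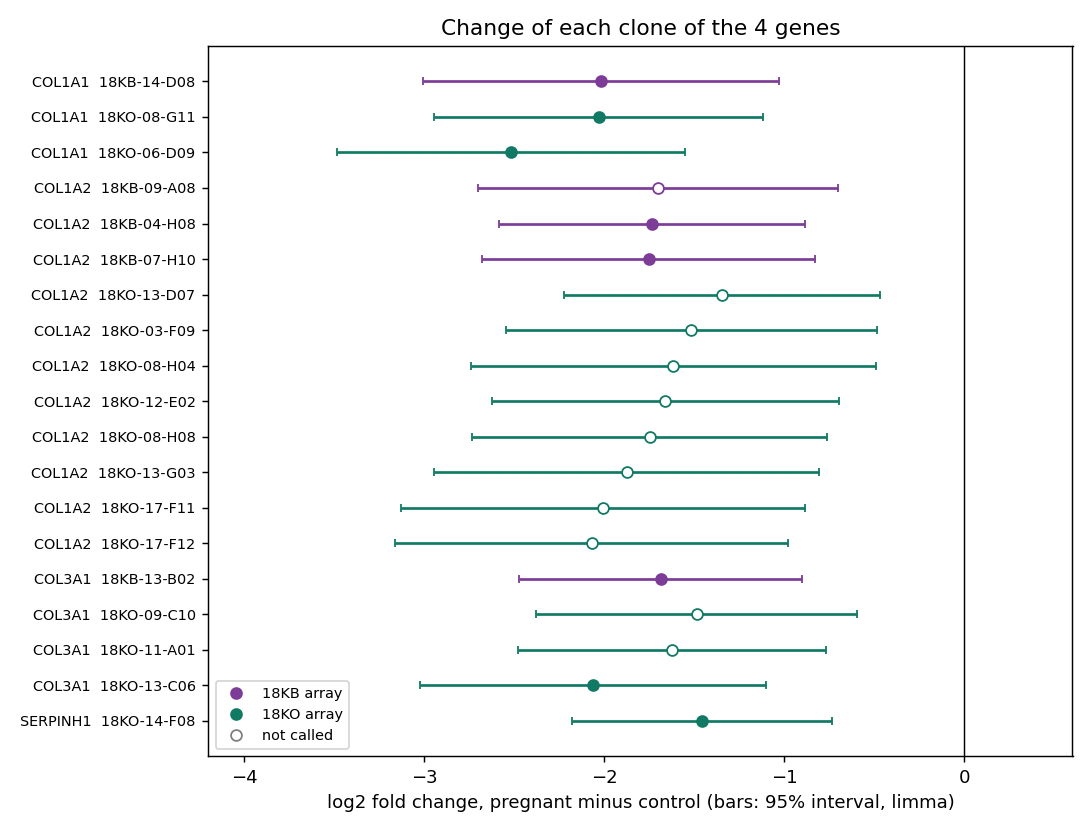
Log2 fold change of each of the 19 clones, pregnant minus control, with its 95% interval; filled points passed the threshold (4 of 5 clones on 18KB, 4 of 14 on 18KO). Every point lies left of 0, from -2.52 to -1.35.

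The size of the changes depended on how the columns are scaled, and how the deposited values were scaled is not given. With all columns brought to one median, log2 fold changes shifted by -0.83 on 18KB and by 0.33 on 18KO. COL1A1 then stood at -2.85 on 18KB and -1.94 on 18KO, COL1A2 at -2.56 and -1.40, COL3A1 at -2.52 and -1.39, and SERPINH1 at -1.13. The background moved as well. Of the called features of 18KB, 9 of 230 were lower in pregnant animals as deposited, 172 of 254 with equal medians and 137 of 239 after quantile normalization. On 18KO these counts were 57 of 70, 62 of 142 and 70 of 122. With equal medians 12.1% of 18KB features were therefore called lower, in place of 0.634%, and the median of all features moved from 0.38 to -0.45. The direction of the 4 genes was the same under each scaling, while how rare a fall is on 18KB was not. The 18KB library was enriched for transcripts more abundant in pregnant animals, and 18KO for the reverse. Equal medians between the groups are thus an assumption, which was not tested.

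The 3 collagen chains could be set against themselves on the other array. As deposited, the change on 18KO minus that on 18KB was -0.26 ± 0.65 for COL1A1, 0.00 ± 0.67 for COL1A2 and -0.04 ± 0.55 for COL3A1 (SE, limma interaction of status and array over the 10 genes on both arrays, adjusted p = 0.999 for each). With the animal as a random replicate block the standard errors fell to 0.33, 0.35 and 0.30, and no difference was called. Equal column medians add 1.16 to this difference for every gene alike, which puts these chains at 0.90, 1.16 and 1.12. That common shift says nothing about the collagens in particular, and the deposited values do not settle which scaling holds.

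Single animals carried much of the spread. Pregnant 448 was the lowest of all 10 animals in 19 of 19 clones, also with equal column medians. Its intensity was 0.32 to 0.42 of the geometric mean of the other pregnant animals on 18KB and 0.17 to 0.49 on 18KO. Control 427 was the highest animal in all 5 clones of 18KB. On that array the columns of control 427 and pregnant 426 and 447 stood apart, with 0 values at the floor where the others had 9 to 16, and they were the highest control and the 2 highest pregnant animals for each of the 3 chains. With these columns as a block the log2 fold changes on 18KB were -2.47 ± 0.30 for COL1A1, -2.15 ± 0.28 for COL1A2 and -1.99 ± 0.29 for COL3A1 (SE), and all 3 were called. On 18KO control 449 was the highest in 12 of 14 clones, and control 427 in COL1A2 clone 18KO-13-D07 and COL3A1 clone 18KO-11-A01. The ratio of column medians, 449 over 427, was 0.729 on 18KB and 1.92 on 18KO, so the change of top animal went along with a shift of the whole column. With equal medians control 427 was the highest in 12 of 19 clones.

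**Figure D3:**
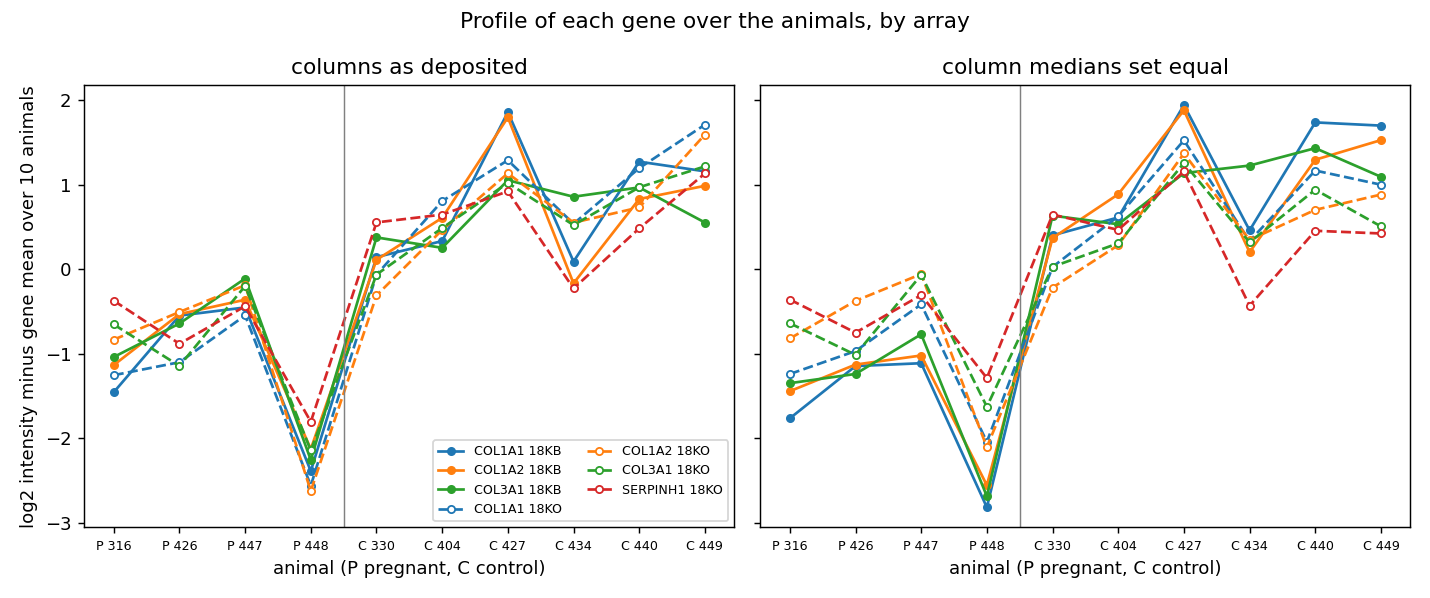
Log2 intensity of each gene over the 10 animals relative to its mean (solid line 18KB, dashed line 18KO), as deposited and with column medians set equal. The 4 pregnant animals are on the left of each panel; the dip at pregnant 448 is seen for all 4 genes on both scales, and the rise at control 449 on 18KO is smaller with equal medians.

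Transcripts of the conceptus were measured on 18KB for 3 of the 12 trophoblast markers, and they were highest in pregnant 448, the animal with the lowest collagen values. TKDP1, a trophoblast Kunitz domain protein, was at 0.187 to 0.401 in the controls, at 0.341 in pregnant 316, 1.43 in 447, 2.85 in 426 and 16.1 in 448. IFNT2, an interferon tau gene, was at 0.377 to 0.683 in the controls and at 0.586, 1.59, 2.86 and 6.95 in those pregnant animals in turn. TKDP4, of the same family, reached 18.6 in pregnant 448. The remaining pregnant animals did not follow that order. Of them 316 had the least TKDP1 and IFNT2 and also the lowest values of the 3 chains on 18KB. COL1A1 there was at 53.05 in 316, 99.37 in 426 and 106.21 in 447. On 18KO pregnant 426 was below 316 for COL3A1 and SERPINH1, and 316 was again the lowest of them for COL1A1 and COL1A2. The summed level of the 3 markers was 1.44 to 41.7 in pregnant animals and 0.955 to 1.79 in controls, and none was at 0. Their part in the collagen values was not tested. Without pregnant 448 the log2 fold changes were -1.63 for COL1A1, -1.37 for COL1A2 and -1.27 for COL3A1 on 18KB. On 18KO they were -1.88, -1.20, -1.36 and, for SERPINH1, -1.15. COL3A1 on 18KB was then the 1 gene still called, and 0 of the 4 were called on 18KO. Leaving out pregnant 316 instead left 0 genes called on 18KB and 1 on 18KO, so lost calls were not particular to 448. The share of all features called with 1 animal left out is not given here.

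Markers of the tissue's own cells were few on these arrays. Of the 16 stromal markers 18KO held 6, whose summed level was 69.5 to 275 in pregnant animals and 328 to 1086 in controls, and 3 of the 6 are the collagens themselves. The others were COL6A3 at -2.44 ± 0.42 (SE, adjusted p = 0.00197), FBLN1 at -1.06 ± 0.38 (SE, adjusted p = 0.0833) and NR2F2, a nuclear receptor of stromal cells, which rose by 1.52 ± 0.33 (SE, adjusted p = 0.00962). The stromal markers thus did not all move one way. Both smooth muscle markers present of 8 fell, ACTA2 with a log2 fold change of -1.41 ± 0.28 and MYLK with one of -1.58 ± 0.34 (SE, adjusted p = 0.00508 and 0.00856), with summed levels of 4.81 to 9.33 against 14.7 to 33.3. Both passed the threshold downward, as did 3.87% of all features and 21 of the 72 named genes of 18KO. The 1 epithelial marker of 9, the tight junction gene CLDN4, stood at 18.9 to 32.6 against 1.75 to 19.7 (log2 fold change 1.96 ± 0.58, SE, adjusted p = 0.0393). No endothelial or leukocyte marker was named on either array. The part of cell composition in the collagen values was not tested.

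Within an animal the difference between a pair of genes on an array does not depend on the scaling of the column, so the 4 genes were compared with each other in this way. Over 9 pairs on both arrays, none differed in its change at an adjusted p under 0.05 by two-sided exact permutation. COL1A1 changed more than COL1A2 by -0.54 on the log2 scale (95% interval -0.87 to -0.22) on 18KO, with an exact permutation p of 0.00952, adjusted to 0.0643. It differed from COL3A1 by -0.55 (-0.88 to -0.22; exact permutation p = 0.0143, adjusted 0.0643) and from SERPINH1 by -0.82 (-1.52 to -0.12; exact permutation p = 0.0333, adjusted 0.1). All 3 comparisons passed 0.05 without control 330, at an adjusted p of 0.0476. On 18KB the difference of COL1A1 from COL1A2 was -0.29 (-0.60 to 0.02) and from COL3A1 -0.33 (-1.04 to 0.38). COL1A2 and COL3A1 differed by -0.04 (-0.81 to 0.72) on 18KB and by less than 0.01 on 18KO, with an interval from -0.52 to 0.51. COL1A2 differed from SERPINH1 by -0.27 (-1.12 to 0.58) and COL3A1 from SERPINH1 by -0.27 (-0.88 to 0.35). These intervals are wide and do not show that the genes changed alike.

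The wider machinery of collagen assembly was drawn from a list of 93 genes, of which 89 are other than these 4. Clones were sequenced, and so named, chiefly because they differed in these animals, so counts among named genes do not stand for the whole list. On 18KO 12 of the 89 were named, 5 passed the threshold downward and none upward, where 3.87% of all features and 21 of the 72 named genes of that array passed it downward. The 12 had a median log2 fold change of -1.38 against -0.02 over all features, most of them without a name and so no like background. On 18KB SEC61A1 alone was named. No clone carried the name of another fibrillar chain (0 of 8), of an enzyme that hydroxylates or otherwise modifies procollagen (0 of 15), or of a gene for processing and crosslinking (0 of 11), so the arrays say nothing of these steps.

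Of the 15 genes for folding and transport, 4 were named on 18KO and 0 were called there. SEC61A1, a channel subunit through which nascent chains enter the endoplasmic reticulum, was called on 18KB at -1.06 ± 0.24 (SE, adjusted p = 0.00497) and stood at -1.02 ± 0.25 on 18KO (SE, adjusted p = 0.0181). CKAP4, a membrane protein of that compartment, stood at 0.94 to 1.15 in pregnant animals and 2.24 to 12.35 in controls (adjusted p = 0.0109). The chaperone HSPA5 was at -1.42 ± 0.37 and KDELR2, a receptor that returns escaped residents, at -0.98 ± 0.31 (SE, adjusted p = 0.0244 and 0.054). For all 4, every pregnant animal lay below every control on 18KO as deposited, as was so for 9.59% of features. With equal medians this held for SEC61A1, CKAP4 and KDELR2 and not for HSPA5, against 6.32% of features.

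Fibril-associated proteins were named for 5 of 15 on 18KO. All 5 estimates were below 0, and 3 passed the threshold downward, as did 21 of the 72 named genes there. TNC, a matrix glycoprotein of remodelling tissue, fell most, by 3.26 ± 0.59 on the log2 scale (SE, adjusted p = 0.00291), from 1.65 to 15.99 in controls to 0.373 to 0.900 in pregnant animals. SPARC, a collagen-binding matrix protein, fell by 1.53 ± 0.31 and THBS2, a thrombospondin, by 1.32 ± 0.28 (SE, adjusted p = 0.00525 and 0.00772). THBS2 was dim, at 0.34 to 0.68 in pregnant animals and 0.82 to 1.82 in controls. Fibronectin, FN1, at -1.35 ± 0.36 (SE, adjusted p = 0.0259) and FBLN1 did not pass. Of 12 genes for turnover, the inhibitor of matrix metalloproteinases TIMP1 fell by 2.19 ± 0.43 (SE, adjusted p = 0.00434), while TIMP3 stood at -0.87 ± 0.36 (SE, adjusted p = 0.124). PMEPA1, the 1 named gene of 13 for transforming growth factor beta signalling and its targets, which dampens that pathway, fell by 2.08 ± 0.36 (SE, adjusted p = 0.00203). Among the collagens of other types, COL4A2, a chain of basement membranes, fell by 1.79 ± 0.28 on 18KO (SE, adjusted p = 0.0011). COL6A1 and COL6A2, chains of the beaded filaments around fibres, fell on 18KB with log2 fold changes of -1.26 ± 0.29 and -1.01 ± 0.25 (SE, adjusted p = 0.00583 and 0.00848), and COL6A1 was at -1.11 ± 0.29 on 18KO (SE, adjusted p = 0.0242).

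**Figure D4:**
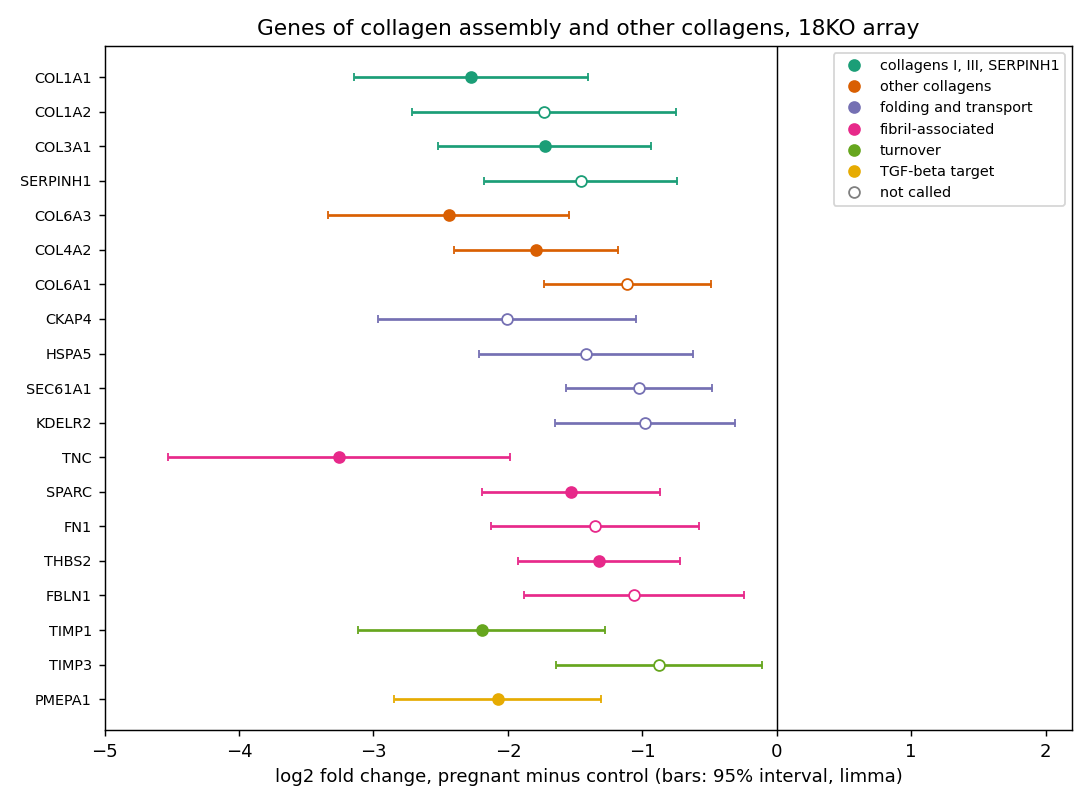
Log2 fold change on 18KO, pregnant minus control, of 19 genes named there from the collagen assembly list and the other collagens, with 95% intervals; filled points passed the threshold. All estimates lie below 0, from -3.26 for TNC to -0.87 for TIMP3.

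The 3 collagen chains also varied together among animals of one status. After column medians were set equal and the group means removed, COL1A1 correlated across the 10 animals with COL1A2 at r = 0.962 and with COL3A1 at 0.774 on 18KB. On 18KO the values were 0.956 with COL1A2, 0.930 with COL3A1 and 0.648 with SERPINH1. These are descriptions with 8 degrees of freedom, in which all genes share RNA, labelling and hybridisation. The 18KB columns with 0 values at the floor, control 427 and pregnant 426 and 447, entered without a block, and their weight was not tested. Among the other named genes, those most like COL1A1 on 18KB were COL6A1 at 0.818, LOC511531 at 0.817, IFIT3 at 0.801, AGRN at 0.753 and FLNA at 0.752. Of these COL6A1 and FLNA were lower in pregnant animals, while LOC511531, the interferon-induced IFIT3 and the basement membrane proteoglycan AGRN were higher, so likeness within groups did not follow the direction between them. On 18KO they were PPP4R3A at 0.936, FLNA at 0.809, CHPF at 0.801, COL6A3 at 0.763 and SPARC at 0.750. By this measure COL1A2 ranked 1 and COL3A1 ranked 5 among the 85 other named genes of 18KB. Among the 71 others of 18KO, COL1A2 ranked 1, COL3A1 ranked 3 and SERPINH1 ranked 10.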

How the data were processed

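Endometrial RNA of 4 pregnant and 6 control heifers was hybridised to 2 arrays of 1536 clones. The values, as the authors deposited them, are linear spot intensities; the sources used here do not give the background subtraction or scaling. Intensities below 0.01 were set to 0.01 before log2, and the deposited columns were not rescaled. Clones with 1 symbol in the platform's gene table (202 on 18KB, 137 on 18KO) were averaged per gene; the other clones stayed single features, giving 1420 and 1471. All 4 genes matched RefSeq (ARS-UCD2.0) by identifier and symbol; coordinates are left out because no source used here names the build of the clones.

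Groups were compared with limma 3.58.1 (lmFit, eBayes; R 4.3.3, statmod 1.5.0), two-sided, with Benjamini-Hochberg adjustment over all features; all fold-change p-values in the text come from it. Permutation tests enumerated 210 splits. The scripts were tested on simulated data. Figures used matplotlib 3.10.9 under Python 3.11.15. The labels' numbers identify animals and thereby pair both arrays of each; pregnant and control share none. Named were the 4 genes with every clone, all named genes of the assembly and marker lists, other collagens, and per array the 5 genes most like COL1A1. These genes and lists were chosen with earlier results of these data known. TKDP1, IFNT2 and TKDP4 belong to the marker lists. Other columns of per-sample values numbered 0. Alternatives were 3 scalings, another floor, a pseudocount, a filter on dim clones, other thresholds, priors, array weights, age, other summaries of clones, and leaving out each animal.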

Additional observations from a re-analysis of the deposited data

Results flagged for a closer look

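Control 427 stood apart from the other controls in 2 clones. In COL1A2 clone 18KO-13-D07 it read 396.39, against 146.91 to 181.94 in the other 5 controls. On the log2 scale its gap to the nearest of them was 0.785 of the range of the group. In COL3A1 clone 18KO-11-A01 it read 116.69, against 32.07 to 50.61, and the gap on the log2 scale was 0.647 of the range. Of the 52 groups examined for such gaps these 2 passed Dixon's 95% critical value, and chance flags about 1 in 20 groups. In the other 12 clones of the 4 genes on 18KO, control 449 was the highest animal.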

How the results depend on the processing

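All 157 alternative values of the log2 fold changes kept a negative sign, while the calls moved. On 18KB, 3 genes and 4 clones were called; with age as a covariate 1 and 1 were, and with 1 animal left out 0 to 3 and 1 to 5 (0 genes without pregnant 316). On 18KO, 2 genes and 4 clones were called; 4 and 12 were with 1 factor per animal, 0 and 0 with a floor at the 10th percentile, 4 and 14 at an adjusted p under 0.05 with no fold, and 1 and 2 with age. Genes numbered 1 with the brightest clone and 4 when only named genes were adjusted for; clones numbered 7 after quantile normalization. With 1 animal left out they were 0 to 2 and 1 to 5 (0 genes without pregnant 448). The cause was not tested. Pair differences called were 0, and 0 to 3 with 1 animal left out (3 without control 330). The difference between the arrays turned positive for COL1A1 and COL3A1 with equal medians, 0.90 and 1.12, by a shift common to all genes, and with quantile normalization, 0.27 and 0.39. The replicate block, pairing the arrays of an animal, changed no call as deposited (0 genes); with equal medians, added after seeing the data, it called 3 by that shift. With 1 animal left out the array difference was -0.13 to 0.17 for COL1A2 and -0.17 to 0.12 for COL3A1, and COL1A2 minus COL3A1 was -0.25 to 0.10 on 18KB and -0.22 to 0.15 on 18KO.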
